A study of Rattus norvegicus with 6 samples.

Results

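Cell cycle and DNA replication genes were examined in the colons of azoxymethane (AOM)-treated rats. The set named 37 rat genes, 16 of DNA replication and the G1/S transition and 21 of mitosis and general proliferation. A gene was represented by the array probe with the highest mean in the deposited log2 table, after probes were matched to genes by RefSeq accession. By this rule 32 of the 37 genes were measured, out of 12418 genes with such a probe on the array. These were 15 replication members and 17 mitotic members. Mcm5, Mki67, Top2a, Bub1b and Melk had no probe by this rule and are not analysed here.

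Each of 6 Agilent one-color arrays carried RNA from the colon of 1 rat, 3 from the S.LEW(10)x12x2x3x5 congenic strain (S.LEW congenic, rats C1 to C3) and 3 from the Dahl salt-sensitive strain SS/Jr (S, rats S1 to S3). The congenic genome is that of S apart from a small introgressed Lewis (LEW) piece of rat chromosome 10, and the study describes rififylin (Rffl) as the only protein-coding gene of that segment, so that no member of the set lies in it. All rats were male, ate a low-salt diet, received AOM at 15 mg/kg body weight in 2 weekly injections from 6 weeks of age, and were 30 weeks old at collection. Both groups therefore carry the carcinogen treatment, no untreated colon was analysed here, and RNA came from harvested colon tissue of mixed cell types (the sources used here do not say whether tumors were included), so that a lower signal cannot be told apart as fewer dividing cells or as less RNA per cell.

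A dividing cell licenses its replication origins in G1 by loading the Mcm helicase with Cdc6 and Cdt1, and the E2F transcription factors and cyclin E then start S phase, when genes for nucleotide supply and for the replication fork are expressed. Genes of mitosis follow in G2, activated by the MuvB core bound to B-Myb and FoxM1 after its repressor form, the DREAM complex, has come apart, and their products build the spindle, hold the checkpoint and complete cytokinesis. In the colon most division takes place in the lower crypt, and lymphoid follicles of the colon wall hold a second dividing population.

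The RefSeq promoter table (rat assembly GRCr8, a window of 300 bases, most of them before the start of each gene) held 22 of the 32 measured members, 10 replication and 12 mitotic. The E2F-type letters TTTCGCG or else TTTGGCG or else TTTCCCG or else TTTGCCG, searched on both strands as were the others, were found in 7 of the 10 replication promoters, 2 of the 12 mitotic promoters and 7.08% of 27457 promoters of the same length. The cell cycle homology region letters TTTGAA were found in 7 of the 12 mitotic promoters, 1 of the 10 replication promoters and 18.1% of all promoters, and the variant TTCGAA in 2 replication promoters, no mitotic promoter and 1.77% of all. CCAAT was found in 6 of the 10, 10 of the 12 and 37.7%, in the same order. A match describes letters in this window and is no evidence of binding. Matches on the printed strand or its complement can overlap, and their capitals then run together.

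The promoters of 4 members on which the results below turn are shown 5′ to 3′ on the strand of the gene, together with Ccnb2 as a mitotic promoter with repeated TTTGAA and CCAAT. Capitals mark the E2F-type letters, TTTGAA or CCAAT, or the reverse complement of any of them. Mcm3 lies at chr9:30733697-30733996 on the minus strand, Tyms at chr9:120776034-120776333 on the minus strand, Birc5 at chr10:103571896-103572195 on the plus strand, Ccnb2 at chr8:79981609-79981908 on the minus strand and Cdc20 at chr5:137255750-137256049 on the minus strand.
Mcm3: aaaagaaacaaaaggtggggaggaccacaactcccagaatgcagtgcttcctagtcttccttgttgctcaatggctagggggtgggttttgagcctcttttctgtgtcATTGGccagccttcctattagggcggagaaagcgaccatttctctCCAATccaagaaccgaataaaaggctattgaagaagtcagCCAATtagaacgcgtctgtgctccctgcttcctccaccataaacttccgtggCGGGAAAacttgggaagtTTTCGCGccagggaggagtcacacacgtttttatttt
Tyms: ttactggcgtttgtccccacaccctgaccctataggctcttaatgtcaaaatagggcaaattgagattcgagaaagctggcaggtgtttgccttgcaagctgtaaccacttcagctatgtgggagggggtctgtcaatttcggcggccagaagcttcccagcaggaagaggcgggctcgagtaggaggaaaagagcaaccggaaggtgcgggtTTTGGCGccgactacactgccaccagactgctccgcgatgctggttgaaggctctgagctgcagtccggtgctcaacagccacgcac
Birc5: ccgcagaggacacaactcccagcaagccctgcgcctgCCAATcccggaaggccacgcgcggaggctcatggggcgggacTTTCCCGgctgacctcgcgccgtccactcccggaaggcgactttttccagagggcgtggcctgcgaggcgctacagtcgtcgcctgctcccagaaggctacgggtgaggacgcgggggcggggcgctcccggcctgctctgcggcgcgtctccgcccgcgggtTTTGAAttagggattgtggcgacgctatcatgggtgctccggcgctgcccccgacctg
Ccnb2: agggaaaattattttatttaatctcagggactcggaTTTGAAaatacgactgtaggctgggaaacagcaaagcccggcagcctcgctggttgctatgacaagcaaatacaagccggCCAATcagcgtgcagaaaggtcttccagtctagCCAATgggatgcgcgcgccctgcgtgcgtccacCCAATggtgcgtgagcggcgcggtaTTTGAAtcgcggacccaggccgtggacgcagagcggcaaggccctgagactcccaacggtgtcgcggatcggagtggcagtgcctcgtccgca
Cdc20: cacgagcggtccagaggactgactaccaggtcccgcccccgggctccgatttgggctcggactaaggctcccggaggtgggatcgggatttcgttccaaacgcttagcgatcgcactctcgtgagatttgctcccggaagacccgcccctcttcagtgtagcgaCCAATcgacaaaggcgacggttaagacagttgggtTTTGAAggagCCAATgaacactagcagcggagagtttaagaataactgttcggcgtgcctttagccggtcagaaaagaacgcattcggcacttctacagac
Mcm3 and Tyms both carry E2F-type letters, and Birc5 carries E2F-type letters together with CCAAT and TTTGAA. Ccnb2 and Cdc20 hold CCAAT and TTTGAA with no E2F-type match.

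The arrays differed before normalization. The median intensity over all spots was 594.1 in S1 and 444.8 in S3. It was 219.4 in S2 and 213.8 to 291.2 in the congenic rats. Between 73.8% and 87.6% of the spots were well above background, with 0 saturated spots. The part of array intensity in the values of the members was not tested. After quantile normalization S2 correlated with the 3 congenic arrays at 0.967 to 0.976 across all tested probes, but with S1 at 0.9 and with S3 at 0.936, while S1 and S3 correlated at 0.98. The congenic arrays correlated with each other at 0.974 to 0.978, but with S1 at 0.912 to 0.917 and with S3 at 0.929 to 0.938. S1 and S3 therefore stood apart from the other arrays, and the library labelled S2 was closer to the congenic arrays than to its own strain. The members, lists and counts that S2 moves most are given with and without it. C1 and the 3 S arrays shared 1 scan and C2 and C3 another, so that only the first scan held both strains.

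Most members had a lower mean in the S.LEW congenic rats than in the S rats, but no member differed between the strains after adjustment. Of the 32 members, 27 had a log2 fold change (congenic minus S) below 0, or 84.4%, against 47.0% of all 12397 tested genes, whose median was 0.03. The median was -0.51 over the 15 replication members, with 13 of them below 0, and -0.18 over the 17 mitotic members, with 14 below 0. These medians are descriptions of the set and carry no test.

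At an adjusted limma p under 0.05 there were 0 members called, and 0.0% of all genes. At an unadjusted p under 0.05 there were 2 replication members lower in the congenic rats, Mcm3 and E2f1, against 4.41% of all genes lower, and 1 higher, Tyms, against 10.1% higher. No mitotic member passed in either direction. Together with a 2-fold difference, Mcm3 remained lower (2.64% of all genes) and Tyms remained higher (3.79%). By the methods' t-test 0 members passed the fold and p cut-offs. The levels of the 3 congenic and 3 S rats did not overlap for 2 lower members, Mcm4 and E2f1, against 4.99% of all genes, and for 1 higher member, Tyms, against 14.2% (19.2% in either direction). The lower share of the set is close to that of all genes and the higher share is below it.

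**Figure D1:**
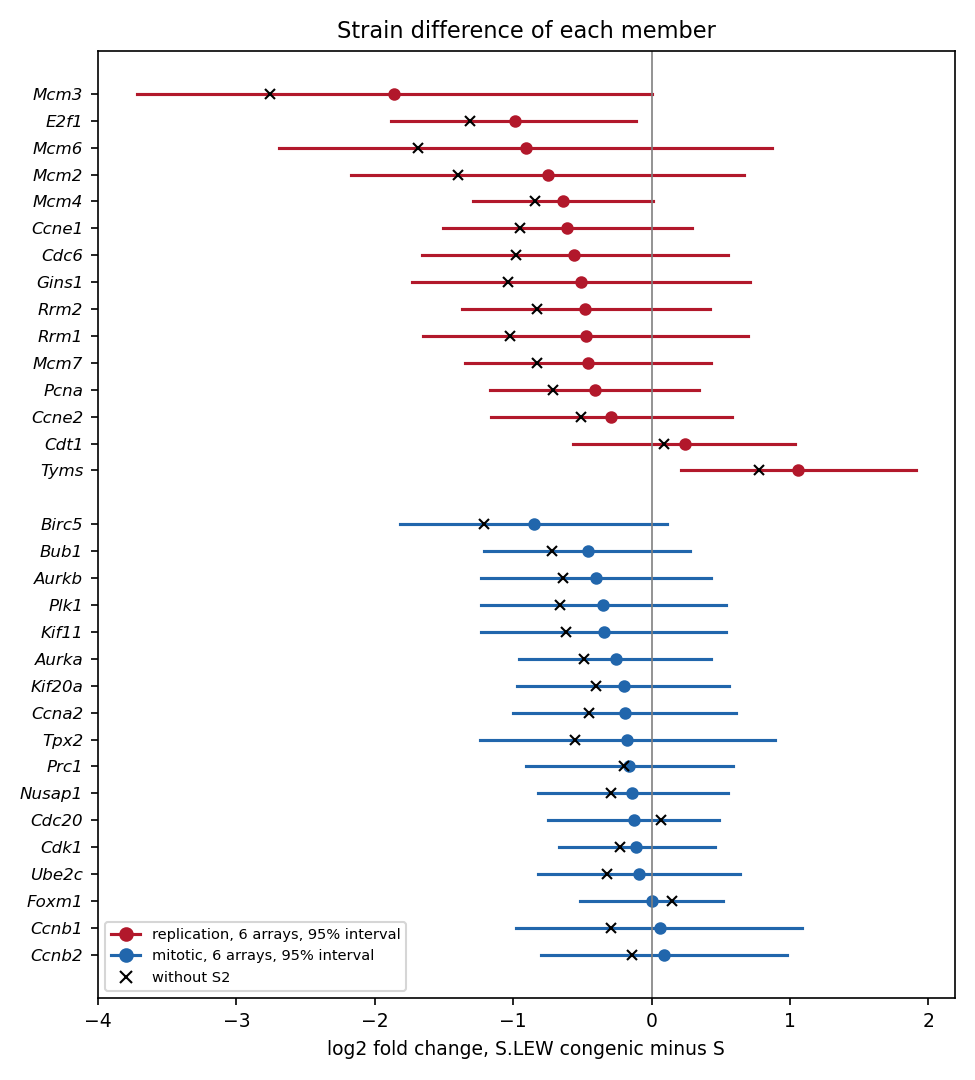
Each row is a member gene, and the x axis is its log2 fold change, S.LEW congenic minus S. Points and lines give the limma estimate over 6 arrays with its 95% interval, red for replication and blue for mitotic members, and crosses give the estimate without S2. Mcm3 at -1.86 and Tyms at 1.06 lie at the ends of the replication members, most mitotic members lie between -0.5 and 0.1, and the crosses of most members lie further to the left.

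The Mcm2 to Mcm7 proteins form the ring helicase that unwinds DNA at the fork. Mcm3 had the widest strain difference of the members. Its log2 signal was 10.48, 10.89 and 10.04 in C1, C2 and C3, while the S rats had 13.58, 10.53 and 12.89. S1 and S3 were far above every congenic rat, while S2 lay inside the congenic range. The mean was 3.64-fold lower in the congenic rats (log2 fold change -1.86, SE 0.77, limma adjusted p = 0.384). The log2 fold change was -2.76 without S2 and -1.24 without S1, and a second Mcm3 probe gave -1.64 over the 6 arrays.

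Mcm2, the second helicase subunit given by rat, had the same 2 rats on top. The congenic rats had log2 signals of 9.54, 9.91 and 9.0, and the S rats 11.18, 8.94 and 10.58. S2 was here the lowest of all 6 rats, and S1 and S3 the highest. The log2 fold change was -0.75 (SE 0.59, limma adjusted p = 0.555), -1.40 without S2, -0.28 without S1, and -0.84 on a second probe. Mcm6 was at -0.91 (-1.69 without S2, -0.34 without S1) and Mcm7 at -0.46 (-0.83 without S2, -0.13 without S1). Both also had S1 and S3 above every congenic rat, with S2 within or below the congenic range.

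Mcm4 was the helicase subunit for which the strains did not overlap. The values were 11.07, 11.34 and 11.04 in the congenic rats and 12.29, 11.39 and 11.71 in the S rats. The gap between C2 and S2 was narrow against the spread within either strain. The log2 fold change was -0.64 (SE 0.27, limma adjusted p = 0.387), and the two-sided exact permutation test gave p = 0.1, the smallest that 3 against 3 rats allow. A second Mcm4 probe gave -0.93 but its strains overlapped.

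Of the factors that load and start the helicase, Cdc6, an origin loader, had a log2 fold change of -0.56 (-0.98 without S2, -0.17 without S1). Gins1, a subunit of the active helicase, had one of -0.51 (-1.04 without S2, -0.11 without S1). Neither passed any threshold over the 6 arrays. Cdt1, the partner of Cdc6, was one of the 2 replication members on the other side of 0, at 0.24, with C3 and S1 as its highest rats.

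E2f1, a transcription factor that switches on S-phase genes, had log2 signals of 9.48, 9.57 and 8.87 in the congenic rats, against 10.90, 9.66 and 10.33 in the S rats. Every S rat lay above every congenic rat, S2 only just. The mean was 1.99-fold lower in the congenic rats (log2 fold change -0.99, SE 0.37, limma adjusted p = 0.358, exact permutation p = 0.1). The second E2f1 probe did not show this: its log2 fold change was -0.18 (SE 0.30) and its strains overlapped.

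Ccne1 encodes cyclin E1, the partner of Cdk2 at the start of S phase. The log2 signal of Ccne1 was 8.49, 9.11 and 8.67 in the congenic rats and 10.02, 8.68 and 9.39 in the S rats. S1 and S3 exceeded all 3 congenic rats and S2 lay within their range. The log2 fold change was -0.61 (SE 0.37, limma adjusted p = 0.484) and -0.95 without S2, against -0.29 and -0.51 for Ccne2, the second cyclin E gene. Without S1 the values were -0.28 for Ccne1 and -0.22 for Ccne2.

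Pcna encodes the sliding clamp of the replicative polymerases and is a common proliferation marker. The log2 signal of Pcna was 11.45, 11.66 and 11.12 in the congenic rats and 12.25, 11.22 and 12.00 in the S rats. S1 and S3 were again above every congenic rat, with S2 inside the congenic range. The log2 fold change was -0.41 (SE 0.31, limma adjusted p = 0.545), -0.71 without S2 and -0.20 without S1.

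Nucleotide supply was split. Rrm1 and Rrm2, the subunits of ribonucleotide reductase, had log2 fold changes of -0.47 and -0.48. These were -1.02 and -0.83 without S2, and -0.03 and -0.25 without S1. A second Rrm2 probe gave -0.24 (0.14 without S1). Rrm1 was dim, well above background on 1 of 3 congenic and 3 of 3 S arrays, and was the only member not well above background on all 6. Tyms, thymidylate synthase, which makes the thymidine nucleotide for DNA, went the other way. Its log2 signal was 9.73, 9.81 and 9.38 in C1, C2 and C3, and 9.30, 8.02 and 8.42 in the S rats. Every congenic rat was above every S rat, C3 and S1 by a small margin. The mean was 2.08-fold higher in the congenic rats (log2 fold change 1.06, SE 0.35, limma adjusted p = 0.338, exact permutation p = 0.1). Its direction held with any 1 rat left out (0.78 to 1.42) and against S2 alone (1.62).

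**Figure D2:**
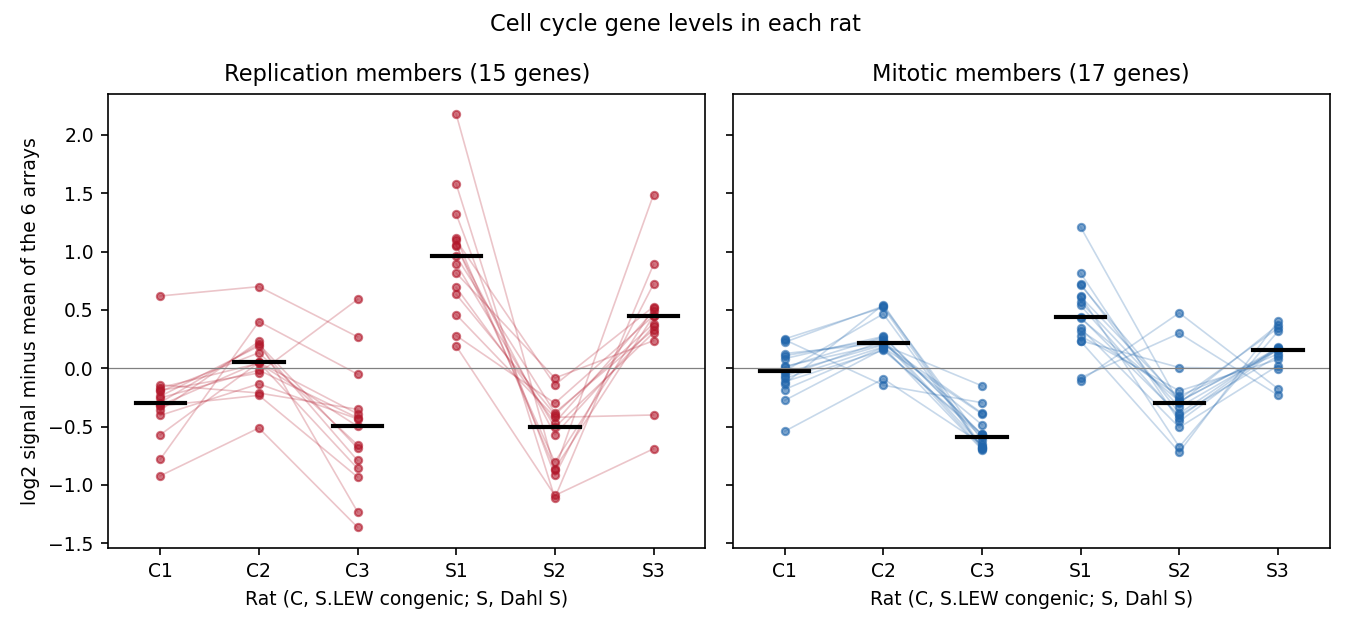
The x axis gives the 6 rats and the y axis each member's log2 signal minus its own mean over the 6 arrays, with replication members on the left and mitotic members on the right. Each thin line is 1 gene and each black bar the median of the genes in that rat, which is 0.96 in S1 and -0.51 in S2 for the replication members, and 0.44 and -0.30 for the mitotic members.

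Mitotic entry genes differed little between the strain means. Cdk1 encodes the mitotic kinase. The log2 signal of Cdk1 was 10.73, 10.92 and 10.33 in the congenic rats and 10.99, 10.52 and 10.79 in the S rats. The strains overlapped, with C3 the lowest rat, and the log2 fold change was -0.11 (SE 0.23, limma adjusted p = 0.836). Ccnb1 encodes cyclin B1, the partner of Cdk1. The log2 signal of Ccnb1 was 9.91, 10.18 and 8.97 in the congenic rats and 9.89, 8.94 and 10.06 in the S rats. C3 and S2 were nearly equal and low, the other 4 rats were close together, and the log2 fold change was 0.06 (SE 0.43, limma adjusted p = 0.953). Ccnb2, the second B-type cyclin, was at 0.09 and Ccna2, cyclin A2, at -0.19. Without S2 the values were -0.23 for Cdk1, -0.29 for Ccnb1, -0.14 for Ccnb2 and -0.45 for Ccna2. Without S1 they were 0.01, 0.19, 0.29 and 0.02, in the same order.

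The mitotic member with the widest strain difference was Birc5, which encodes survivin, a subunit of the chromosomal passenger complex and an inhibitor of apoptosis. Its log2 signal was 8.19, 8.64 and 8.08 in the congenic rats and 9.94, 8.43 and 9.10 in the S rats. S1 and S3 were above every congenic rat and S2 was below C2. The log2 fold change was -0.85 (SE 0.40, limma adjusted p = 0.408), -1.21 without S2 and -0.46 without S1. Aurkb, the kinase of the same complex, had 7.88, 8.15 and 7.27 in the congenic rats and 8.68, 7.68 and 8.14 in the S rats. Its strains overlapped at -0.40 (SE 0.35, limma adjusted p = 0.586), and the value was -0.64 without S2 and -0.14 without S1.

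Bub1, a spindle checkpoint kinase, had log2 signals of 9.59, 10.03 and 9.28 in the congenic rats and 10.48, 9.60 and 10.21 in the S rats. S1 and S3 again exceeded the congenic rats and S2 did not. The log2 fold change was -0.46 (SE 0.31, limma adjusted p = 0.507), -0.72 without S2 and -0.27 without S1. Plk1, a kinase of spindle assembly and mitotic exit, had 9.59, 9.86 and 9.14 against 10.52, 9.25 and 9.87. S3 and C2 were nearly equal. The log2 fold change was -0.35 (SE 0.37, limma adjusted p = 0.654), -0.66 without S2 and -0.03 without S1. Kif11, the motor that separates the spindle poles, had 9.02, 9.32 and 8.40 in the congenic rats and 9.81, 8.70 and 9.27 in the S rats. Its strains overlapped at -0.34 (SE 0.37, limma adjusted p = 0.654), and the value was -0.62 without S2 and -0.07 without S1.

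The remaining spindle and cytokinesis genes, namely Aurka, Tpx2, Kif20a, Nusap1 and Prc1, ranged from -0.26 for Aurka, the spindle pole kinase, to -0.14 for Nusap1, a microtubule binding protein. Ube2c, the ubiquitin-conjugating enzyme of the anaphase-promoting complex, was at -0.09. The strains overlapped for each of them, and without S2 they ranged from -0.55 for Tpx2 to -0.20 for Prc1. Without S1 they ranged from -0.08 for Prc1 to 0.11 for Ube2c.

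Cdc20 and the chosen probe of Foxm1 did not share the order of the rats. Cdc20, the activator of the anaphase-promoting complex, had 12.26, 11.87 and 11.72 in the congenic rats and 11.91, 12.49 and 11.84 in the S rats. S2 was here the highest of all 6 rats, and the log2 fold change was -0.13 (SE 0.26, limma adjusted p = 0.813). Foxm1, a transcription factor for mitotic genes, was also highest in S2, at 10.28, against 9.90 in S1 and 9.75 in S3. Its log2 fold change was 0.00 (SE 0.21) and changed sign with normexp background correction. On a second, dimmer Foxm1 probe S1 was the highest rat, at 7.19, against 6.62 in S2 and 6.12 in S3. That probe gave a log2 fold change of 0.13 (SE 0.30).

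Most members were high or low in the same rats within each strain. Among the S rats, S1 was the highest for 28 of the 32 members, against 38.7% of all genes, and S2 the lowest for 29, against 41.1%. Among the congenic rats, C2 was the highest for 29 of 32, against 34.2% of all genes, and C3 the lowest for 29, against 33.4%. Members of 1 rat share its RNA and its array, so that these counts are not independent observations.

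Replication and mitotic members differed most in S1. The median deviation of the replication members from their own means took the values 0.96, -0.51 and 0.45 across S1, S2 and S3, against 0.44, -0.30 and 0.16 for the mitotic members. In the congenic rats the medians were -0.29, 0.05 and -0.49 for replication and -0.03, 0.22 and -0.59 for mitosis. The replication median minus the mitotic median was 0.52 in S1, 0.29 in S3 and 0.09 in C3. It was -0.27 in C1, -0.17 in C2 and -0.21 in S2, so that S2 was on the side of C1 and C2. S1 and S3 both exceeded every congenic rat for 12 of the 15 replication members but for 3 of the 17 mitotic members, against 27.3% of all genes.

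The spread within a strain was wide for these genes. The median range among the 3 congenic rats was 0.77 for replication and 0.84 for mitotic members, against 0.40 for all genes. Among the S rats it was 1.34 for replication and 0.89 for mitotic members, against 0.70 for all genes. The strain difference was smaller than the range among the congenic rats for 9 of 15 replication members and 16 of 17 mitotic members, against 58.2% of all genes. It was smaller than the range among the S rats for every one of the 32 members, against 82.1% of all genes.

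**Figure D3:**
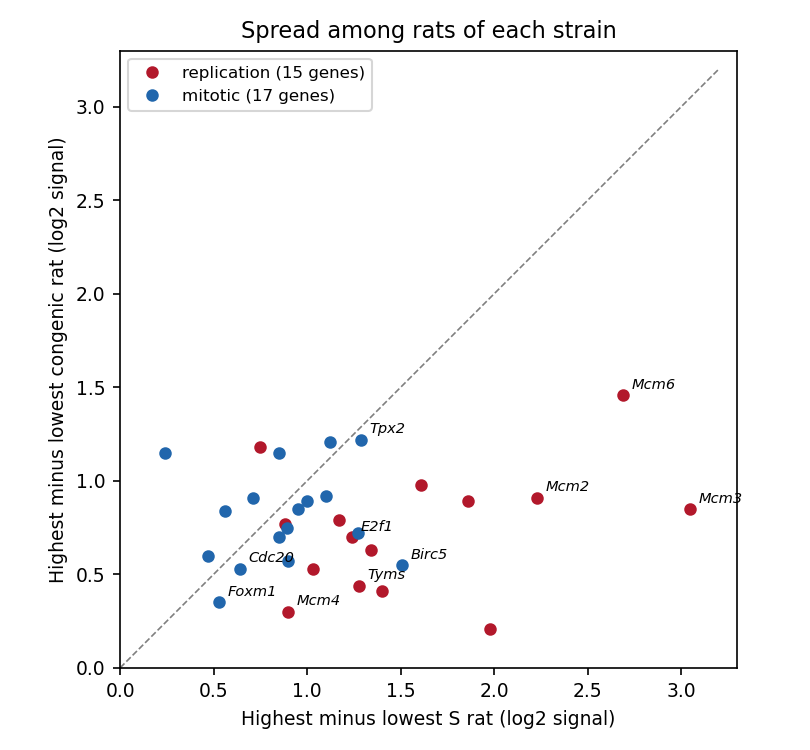
The x axis is the range of the log2 signal among the 3 S rats and the y axis that among the 3 S.LEW congenic rats, with 1 point per member, red for replication and blue for mitotic, and a dashed line of equality. For 14 of the 15 replication members the S range was the wider, up to 3.05 for Mcm3, against 11 of the 17 mitotic members and 71.8% of all genes.

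The strain difference of the set depended on which S rats were included. Without S1 the median was -0.22 for the replication members and -0.04 for the mitotic members, against 0.02 for all genes. Without S3 the medians were -0.42 and -0.18, against 0.02. Without S2 the median was -0.95 for the replication members and -0.40 for the mitotic members, against 0.07 for all genes. Without it 14 members were lower and 1 was higher at an unadjusted p under 0.05, against 18.8% and 24.4% of all genes. At an adjusted p under 0.05 there were 5, all lower in the congenic rats, against 11.6% of all genes lower. They were Mcm3 (limma adjusted p = 0.00908), E2f1 (0.0343), Rrm1 (0.0363), Mcm2 (0.0390) and Birc5 (0.0473). Rrm1 entered the tests mainly through the S arrays, where it was above background, so that its p is no support. S2 was singled out because its array was close to the congenic arrays. Without S2 the adjusted calls over all probes rose from 0 to 5562. The p-values of this fit, here and below, are therefore no support for a strain difference. Leaving out each of the other 5 rats in turn left 0 members at an adjusted p under 0.05. With S2 as the lone S rat, assumed to vary like the congenic rats, the median was 0.28 for the replication members and 0.18 for the mitotic members, and 22 of the 32 members changed sign. Cdc20 (-0.54), E2f1 (-0.35), Mcm4 (-0.23), Birc5 (-0.13), Prc1 (-0.09) and Mcm3 (-0.06) stayed below 0. Tyms (1.62), Ccnb1 (0.75), Ccnb2 (0.55) and Cdt1 (0.54) stayed above it. The second probes of Mcm3, Mcm4 and E2f1 turned above 0, at 0.18, 0.06 and 0.21.

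Within scan 1, C1 against the 3 S rats gave medians of -0.55 for replication and -0.09 for mitotic members, with 6 members of opposite sign to that over all arrays. These were Cdt1, Cdc20, Foxm1, Kif20a, Nusap1 and Ube2c. Scan 2 held congenic rats alone and gives no value.

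Other genes of the pathway mostly lay on the same side of 0 as the members. Of 42 further replication factors 37 were tested and 32 had a log2 fold change below 0, with a median of -0.44 and 0 past an unadjusted p of 0.05. Without S1 the median was -0.17 and without S2 it was -0.68. At p under 0.05 in the fit without S2, 18 were lower unadjusted and 12 adjusted, against the shares of all genes given above. Among them Rfc1, of the clamp loader, was at -0.85 (SE 0.37) and Prim2, of the primase, at -0.88 (SE 0.45). Of 40 further genes of the mitotic machinery 29 were tested and 25 were below 0, with a median of -0.24. Without S1 the median was -0.07 and without S2 it was -0.43. In that fit 12 were lower and 1 higher at an unadjusted p, against 18.8% and 24.4% of all genes. At an adjusted p 3 were lower, against 11.6%. Over the 6 arrays 1 gene was lower at an unadjusted p under 0.05, the condensin subunit Smc2 at -0.54 (SE 0.22, limma adjusted p = 0.380). 1 was higher, the cytokinesis motor Kif23 at 0.48 (SE 0.17, limma adjusted p = 0.351). The shares of all genes were 4.41% lower and 10.1% higher.

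Regulators of G1 did not lean to the same side. Of 22 genes 18 were tested and 6 were below 0, with a median of 0.06. Ccnd1, cyclin D1, was at 0.81 (SE 0.22, limma adjusted p = 0.291) and Cdk6, its kinase partner, at 0.49 (SE 0.18, limma adjusted p = 0.360). Without S2 Ccnd1 was at 0.97 (limma adjusted p = 0.0231) and Cdk6 at 0.52 (limma adjusted p = 0.0847). Strains did not overlap for 3 of the 18, all higher, close to the 14.2% of all genes. The genes furthest below 0 were Wee1, the kinase that holds Cdk1 inactive, at -0.72 and Rbl2, the p130 pocket protein, at -0.70 (-1.22 without S2, limma adjusted p = 0.0148). Myc, a driver of cell growth, was at 0.00, and the E2F genes E2f3, E2f6 and E2f7 at 0.15, 0.08 and 0.25. Of the 7 inhibitors of cyclin-dependent kinases 2 were below 0, with a median of 0.37 (0.14 without S2). The furthest from 0 were both of these, Cdkn2d at -0.82 (-1.17 without S2, limma adjusted p = 0.0184) and Cdkn2a at -0.73, both of them inhibitors of Cdk4 and Cdk6. Cdkn1c, which encodes p57, was at 0.61 (SE 0.22, limma adjusted p = 0.356), and Cdkn1a, the p21 gene, at 0.38 with the strains overlapping. Without S2 Cdkn1c was at 0.78 (limma adjusted p = 0.0301) and Cdkn1a at 0.88 (limma adjusted p = 0.0219). The 3 congenic rats had log2 signals for Cdkn1a of 13.97, 13.78 and 13.70, and the S rats 12.87, 14.43 and 13.00, so that S2 was the highest rat and S1 and S3 the lowest.

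Lymphocyte markers were high in the same S rats as the replication members. The mean level of 4 tested B cell and germinal centre markers of 11 ran from 7.04 to 8.35 in the congenic rats and was 11.47, 7.85 and 10.92 across the S rats. The mean level of 7 of 10 T cell markers was 10.17, 6.38 and 10.26 in S1, S2 and S3, and 6.64 to 6.75 in the congenic rats. S1 and S3 were thus high in the mean of the lymphocyte markers and in replication members, and S2 was low in both. The tested B cell markers were Pax5, Bcl6, Cd22 and Fcrla, of which Pax5 did not follow this order, with 10.04, 10.47 and 9.77 in the S rats. The part of lymphocytes in the values of the members was not tested.

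Smooth muscle markers, all 8 tested, ran in the opposite order, with mean levels of 13.37, 15.71 and 14.36 in S1, S2 and S3 and 15.38 to 15.62 in the congenic rats. Of 11 colon epithelium markers 9 were tested, each well above background on all 6 arrays. Their mean level was 13.00, 13.45 and 13.18 in the S rats and 13.70 to 14.24 in the congenic rats, so that all 3 S rats, S2 included, lay below the congenic rats. All 9 had a log2 fold change above 0, with a median of 0.81, and 6 did not overlap between the strains, against 14.2% of all genes. Crypt base and stem markers, 6 tested of 7, had a median of 0.48, and surface colonocyte markers, 7 of 7, of 0.99. Of the surface markers 6 were above 0, while Aqp8 was at -1.0 with no overlap between the strains. The median was -1.37 for plasma cell, -1.74 for striated muscle, 0.23 for fibroblast, -0.24 for endothelium and -0.24 for macrophage markers. The macrophage markers were split. Lyz2 at -2.21, Csf1r at -1.42 and Cd68 at -0.92 were higher in S1 and S3 than in S2 and every congenic rat. Cd163 at 1.86, Mrc1 at 1.03 and Adgre1 at 0.45 lay on the other side of 0. Of the tested endothelium markers only Pecam1, at -1.14, had S1 and S3 above all other rats. Over probes well above background on all 6 arrays the plasma cell median was -0.33 and that of striated muscle 0.15. This leaves out Myh1 and Mybpc1, above background on 0 of 3 congenic arrays, Myh2 and Tnfrsf17, on 1 of 3, and Mzb1, on 2 of 3. The share of epithelium, muscle or macrophages in the tissue was not measured, and its part in the values of the members was not tested.

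**Figure D4:**
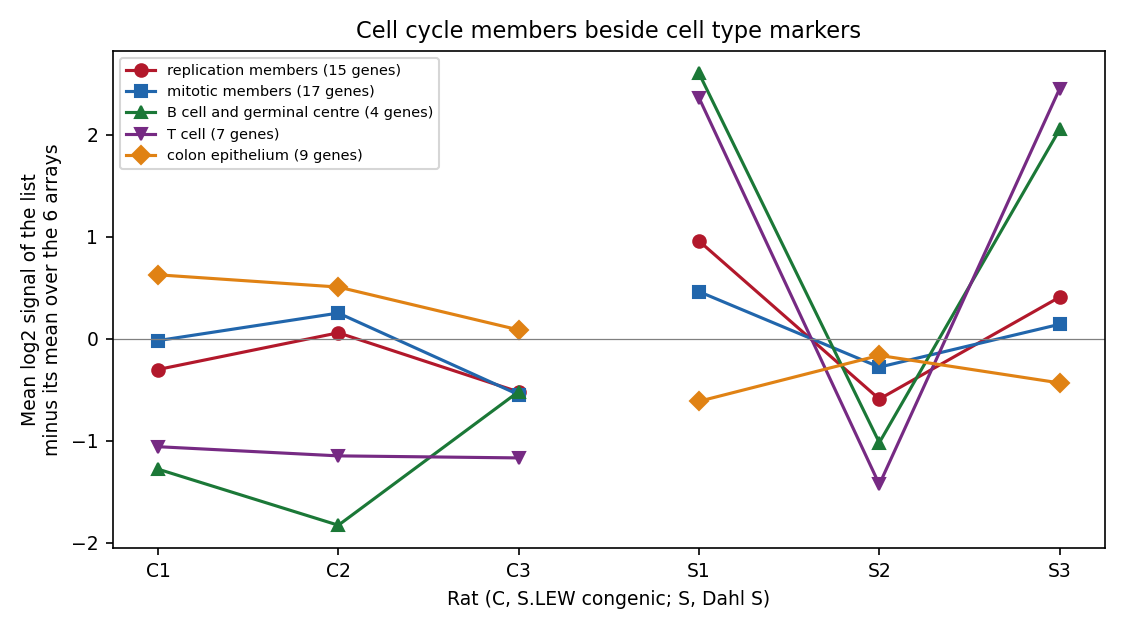
The x axis gives the 6 rats and the y axis the mean log2 signal of each gene list minus its mean over the 6 arrays, for the replication and mitotic members and for B cell, T cell and colon epithelium markers. Replication members and both lymphocyte lists are high in S1 and S3 and low in S2, while the epithelium list is higher in all 3 congenic rats than in any S rat.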

How the data were processed

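The members, gene lists and motifs were chosen with earlier results of these data known. RNA was hybridized to Agilent one-color arrays, 1 per rat, and the deposited scanner files hold the background-corrected intensity that the authors obtained with Agilent Feature Extraction 11.0.1.1. The deposited log2 table holds the values that the authors quantile-normalized in GeneSpring for 23997 probes, after a detection filter of 3 of 6 arrays, and it served to choose 1 probe per gene and as an alternative. Control spots were left out, which gave 42877 spots per array. Outlier spots were then left out, log2 values of the spots of a probe were averaged, and the arrays were quantile-normalized. The resulting values correlated with the deposited log2 values at 0.9999 or above. A probe entered the tests if 3 or more arrays had it well above background, which kept 23974 of 30367 probes. Accessions gave 18005 probes a gene, by RefSeq. The strain effect was fitted with limma 3.58.1 (R 4.3.3) and no covariate, p-values were adjusted by Benjamini-Hochberg across the 23974 probes, and single genes were also tested by an exact two-sided permutation test. The limma fit was tested on simulated data that took the spread of the congenic rats alone. The S rats had the wider spread (median range 0.70 against 0.40 over all genes), which that test does not cover.

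The 12397 genes with 1 tested probe each served as the background. Values in every rat were given for Pcna, Mcm2, Cdk1 and Ccnb1 and for the 5 members of each role with the smallest unadjusted p, and other members by fold change or range. Cdc20, Foxm1 and Cdkn1a were given by rat, and the genes of the pathway lists named, after their values were seen. Rats of a strain are separate animals. The other settings were the deposited values, scaling to the 75th percentile, normexp background correction on the median signal (offset 50), stricter and no filters, array weights, the methods' t-test, a block for the scan or for the replicate number, outlier spots kept, the mean of all probes of a gene and each rat left out. Scan 1 alone, S2 as the lone S rat and the use of the median signal were chosen after seeing the data. 1 marker of the B cell list is not reported here and was left out of its values.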

Additional observations from a re-analysis of the deposited data

How the results depend on the processing

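No member passed an adjusted p of 0.05 under scaling to the 75th percentile, the deposited values, normexp, the 2 other filters, the methods' t-test, the scan or replicate block, outlier spots kept or the mean of probes. Array weights did not converge and called 14 members at an adjusted p, against 12483 of the 23974 probes. At an unadjusted p the weights gave 3202 of the 12397 genes lower. Over all probes 775 were higher and 563 lower past the 2-fold and p cut-offs, against 359 higher with normexp, 342 lower when well above background on all 6 arrays, 514 and 172 with the t-test, 2088 and 1741 with weights, 225 lower with the scan block, 443 and 188 in scan 1 alone and 449 higher with S2 as the lone S rat. Leaving out 1 rat gave 476 to 2399 higher and 186 to 1725 lower. This count has no value for the mean of probes.

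Of the members, 1 higher and 1 lower passed these cut-offs. The higher count was 0 with normexp, the t-test, the scan block and scan 1 alone. The lower count was 0 without a filter, with the t-test, the replicate block, the scan block, scan 1 alone, S2 as the lone S rat and the mean of probes, and 3 with weights. Leaving out 1 rat gave 0 to 1 higher and 0 to 7 lower. At an unadjusted p alone, 1 higher became 0 with the t-test, the scan block and scan 1 alone and 2 with weights or S2 as the lone S rat, and 2 lower became 1 without a filter or with the replicate block, 0 with the t-test, the scan block, scan 1 alone, S2 as the lone S rat and the mean of probes, and 14 with weights (0 to 1 higher and 0 to 14 lower with 1 rat left out).

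Members whose strains did not overlap, 1 higher and 2 lower, became 7 and 4 with S2 as the lone S rat and 8 lower in scan 1 alone (1 to 2 higher and 2 to 15 lower with 1 rat left out). The medians turned to 0.28 for replication and 0.18 for mitotic members with S2 as the lone S rat, and mitotic minus replication from 0.34 to -0.10. With 1 rat left out they ran from -0.95 to -0.22, from -0.40 to 0.06 (above 0 without C3) and from 0.18 to 0.56. The cause of these changes was not tested. With 1 rat left out, the largest lower counts came without S2. They were 14 members at an unadjusted p, against 18.8% of all genes, and 15 without overlap, against 27.3%. Overlap over all genes was not counted for S2 as the lone S rat or scan 1 alone. Rats with the same replicate number deviated from their group means with correlations of -0.02, -0.13 and -0.06, so that the number pairs no rats, and the replicate block gave 791 higher and 743 lower probes. The signal over background limits Rrm1.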
